A study of Rattus norvegicus with 24 samples.

Results

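Microvessels of the rat brain cortex were compared between 2 forms of acute liver failure: 8 arrays from rats whose liver was left in place but cut off from arterial blood, and 8 arrays from rats without a liver. These are 16 of the 24 arrays of the series, chosen by their group label. Both groups first received a portocaval anastomosis, a shunt of portal blood around the liver. After 24 h the hepatic artery was ligated (HAL) or the whole liver was removed (HEP). Tissue was taken 8 to 12 h after that second operation. The 8 arrays of rats with fictitious surgery (Sham) did not enter the comparison. Strain, age and sex are not given in the sources used here, and nothing in the labels ties every array to a rat of its own. The p-values therefore measure the spread between these arrays, whose number limits the precision.

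The endothelium of brain capillaries forms the blood-brain barrier: tight junctions seal the cells to each other, solute carriers bring nutrients across, and efflux pumps return drugs and metabolites to the blood. A failing liver no longer clears ammonia, and brain swelling is a known complication. A liver without blood supply dies in place and can release its contents into the circulation, whereas a removed liver cannot. This is one difference between the models. The second operation itself differed as well, and the direct comparison cannot tell such differences apart.

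No gene passed the test between HAL and HEP. limma with Benjamini-Hochberg adjustment called 0 of 1496 probes at 10 or above, 0 of 1805 probes read as near 10 and 0 of 17126 probes below 10, which is 0.0% of each class. At an unadjusted p under 0.05 stood 127, 149 and 1220 probes, or 8.49%, 8.25% and 7.12%. The smallest adjusted p was 0.170 at 10 or above, 0.286 near 10 and 0.431 below 10. Fisher's exact test of how many arrays had 9 digits in their cell was run on all 1823 probes read as near 10 with 1 gene symbol. It called 0, with 45 at an unadjusted p under 0.05. The genes described below are therefore given as values, and none of them is a difference established between the models. Where groups are said not to overlap, only arrays whose cell could be read are meant. Such probes were picked for a small p, which favours separation, and the share of all probes without overlap was not counted.

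What these tests could see is set by the form of the table. The deposited values are log2 signals, but the table holds only digits after the decimal point, 9 for a value below 10 and 8 for a value from 10 on, without zeros at either end. For the probes with no 9-digit cell, taken as at 10 or above on all arrays, the decimals were laid on a circle and each array is given as its deviation from the probe's centre over the 16 arrays. Probes with 15 or more 9-digit cells of 24 were taken as below 10 and treated in the same way. Such a difference is known only up to whole units. A difference near 0.5 is understated and its direction is not settled, and a larger one cannot be read in size or direction. The 0 calls in these classes thus say nothing about large differences. The median 95% interval reached 0.20 to either side at 10 or above and 0.21 below 10.

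Probes with 1 to 14 cells of 9 digits were read as 9 or 10 plus the decimals, but for most of them the digits did not show a level near 10. A probe that crosses 10 should have 9-digit cells just under it, with decimals of 0.5 or above. This held for 93.8% of 9-digit cells in the 795 probes with 1 to 6 such cells, for 82.5% with 7 to 9, and for 60.0% in the 1459 probes with 10 to 14. In the last group 18.3% of these cells had decimals from 0.1 to 0.2, against 0.89% in the first. A probe close to any lower whole number gives 8-digit cells as well, since a first decimal of 0 is lost and the cell is then read as a value from 10 on. The median SD within a group was 0.25 with 1 to 6 cells of 9 digits and 0.51 with 10 to 14. Levels near 10 are therefore described for the 639 tested probes with 1 to 6 cells of 9 digits, a limit chosen after seeing the data. These had 0 calls (0.0%), 61 at an unadjusted p under 0.05 (9.55%) and a smallest adjusted p of 0.295 in limma. A value below 10 that ends in 0 also loses a digit and is then read 1 unit too high, in this class as well.

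**Figure D1:**
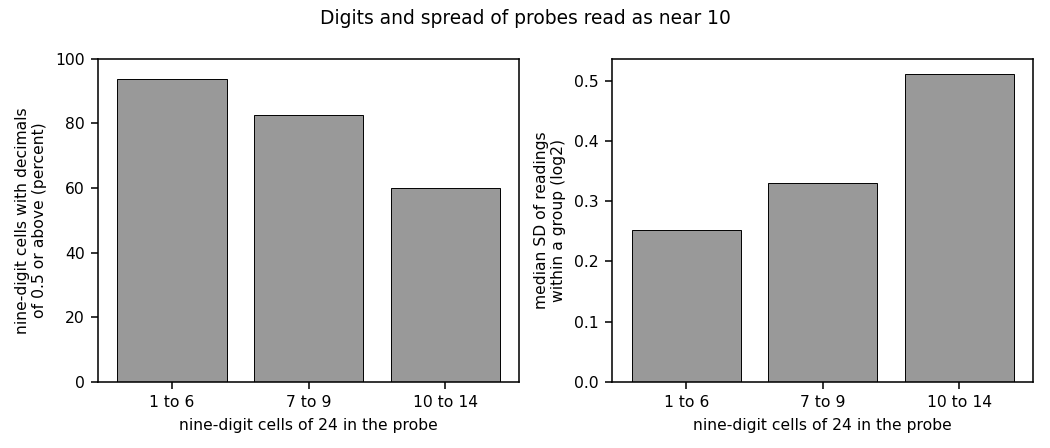
Probes read as near 10, grouped by how many of their 24 cells have 9 digits. Left, the percent of 9-digit cells with decimals of 0.5 or above, which is 93.8, 82.5 and 60.0; right, the median SD of the log2 readings within HAL or HEP, which is 0.25, 0.33 and 0.51.

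More of the abundant probes had a higher mean in HEP than in HAL. At 10 or above 60.2% of probes were higher in HEP, with a median difference of 0.03. Among probes with 1 to 6 cells of 9 digits the share was 60.7% and the median 0.06, and of the 61 at an unadjusted p under 0.05, 50 were higher in HEP and 11 lower. These 50 and 11 are 7.82% and 1.72% of the class. After centring of every array on its own median, which moves such a share towards even by construction, the latter split was 28 to 28, and the share of all these probes higher in HEP was 52.3%. With the decimals of this class read as angles, without centring, the split was 30 to 17 and the share 54.1%. At 10 or above centring moved the split at an unadjusted p under 0.05 from 81 higher (5.41%) and 46 lower (3.07%) to 61 and 65. Where the lean comes from was not tested. Below 10 the share of probes higher in HEP was 48.3%, with a median difference of -0.0047.

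The medians of the arrays overlapped between the groups. Over probes with 1 to 6 cells of 9 digits, the median reading was 10.18 at the lowest, 10.33 at the median and 10.38 at the highest HAL array, and 10.28, 10.37 and 10.41 in HEP (exact permutation test, two-sided, p = 0.0909, 8 against 8). HAL 2 was the lowest array of all. Without it, the split of these probes at an unadjusted p under 0.05 was 31 higher and 16 lower in HEP. What part the level of HAL 2 has in single differences was not tested.

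**Figure D2:**
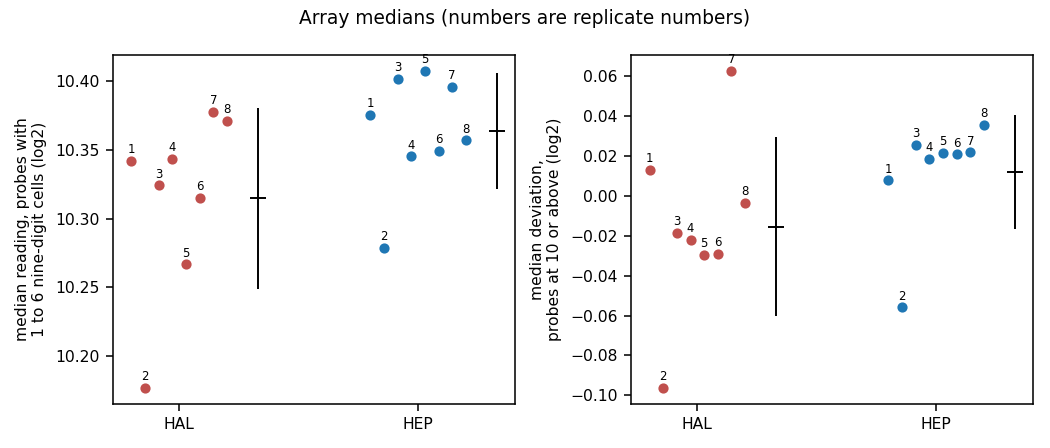
Array medians in HAL and HEP, 8 arrays each; bars give the mean and SD, numbers the replicate. Left, the median log2 reading over probes with 1 to 6 cells of 9 digits; right, the median deviation from the probe centre at 10 or above. HAL 2 is lowest in both panels, and the groups overlap.

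The microvessel label was checked against marker genes fixed for each cell type. Of 19 endothelial markers on the array 14 were measured by a probe in the class at 10 or above, among them Cldn5, the main tight junction claudin, and Flt1, a VEGF receptor. The same held for 6 of 14 markers of astrocytes, 4 of 14 of pericytes, 5 of 12 of smooth muscle and 7 of 12 of perivascular fibroblasts. It also held for 2 of 13 markers of oligodendrocytes, 1 of 9 of choroid plexus and 1 of 3 of red cells. None of 18 neuronal, 13 microglial, 12 neutrophil and monocyte, 10 lymphocyte or 13 hepatocyte markers on the array had a tested probe at 10 or above. Probes with 1 to 6 cells of 9 digits, which read near 10, measured 2 neuronal markers and 1 of neutrophils and monocytes. They also measured 1 marker of oligodendrocytes and 2 of endothelium, but no microglial, lymphocyte or hepatocyte marker. The level of probes below 10 could not be read.

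Among the genes at 10 or above, Psat1 had the second largest mean difference towards HEP of the 6 with the smallest p. Psat1 is an aminotransferase of serine synthesis. Its deviations were -0.40 at the lowest, -0.24 at the median and -0.02 at the highest of 6 HAL arrays, and -0.05, 0.09 and 0.26 in 7 HEP arrays. Of the HEP values 6 lay above all HAL values, and the ranges met only at their ends. The mean was 0.35 higher in HEP (SE 0.086, limma adjusted p = 0.170).

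Sec61a1, the pore-forming subunit of the channel through which proteins enter the endoplasmic reticulum, had deviations of -0.38, -0.25 and 0.05 in 7 HAL arrays and of -0.04, 0.08 and 0.29 in 8 HEP arrays. All but 1 HEP array lay above the HAL range. The difference was 0.33 (SE 0.079, adjusted p = 0.170 in limma), but other probes of the gene, below 10, gave -0.11 and 0.13. Stx12, a syntaxin of endosomes, ran from -0.28 over -0.15 to 0.01 in 7 HAL arrays and from -0.07 over 0.10 to 0.29 in 8 HEP arrays. Its difference was 0.26 (SE 0.074, limma adjusted p = 0.329), and another probe gave -0.007. Hpcal1, a calcium sensor, differed by 0.32 (SE 0.093, limma adjusted p = 0.329), with HEP 8 at -0.37 far below the other HEP arrays, and another probe gave 0.16.

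For Rhob, a small GTPase of the endothelial cytoskeleton, and Gpd1l1, a glycerol-3-phosphate dehydrogenase, the direction was not settled. The differences were 0.33 and 0.39 around the centre of the 16 arrays, but -0.38 and -0.12 around the centre of all 24. Both genes spread over much of the circle, and another probe of Gpd1l1 gave 0.15.

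Lower in HEP without overlap of the arrays read were Gas6, Atp1b2 and Tmed9, all picked for their small p. Gas6 is the ligand of the TAM receptor kinases, which control the clearance of dying cells and vascular inflammation. It had deviations of 0.02, 0.15 and 0.43 in 7 HAL arrays and of -0.30, -0.14 and -0.05 in 6 HEP arrays. Every HAL reading lay above every HEP reading, and the difference was -0.33 (SE 0.080, limma adjusted p = 0.170). Other probes of Gas6, below 10, gave 0.04 and 0.05.

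Atp1b2, the beta 2 subunit of the sodium pump, typical of glia, had deviations of 0.01, 0.10 and 0.29 in 6 HAL arrays and of -0.46, -0.20 and -0.13 in 5 HEP arrays. The groups did not overlap, with a difference of -0.38 (SE 0.091, limma adjusted p = 0.170), while another probe gave -0.04. Tmed9, a cargo receptor between endoplasmic reticulum and Golgi, was read in 6 HAL and 4 HEP arrays, from -0.08 over 0.08 to 0.23 and from -0.49 over -0.37 to -0.10. The difference of -0.40 (SE 0.102, limma adjusted p = 0.234) rests on few arrays, and another probe of the gene gave 0.13.

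Arsl, an arylsulfatase, had the smallest p at 10 or above and was read in all 16 arrays, from -0.01 over 0.14 to 0.25 in HAL and from -0.41 over -0.24 to 0.08 in HEP. Of the HEP arrays 7 lay below the lowest HAL array. The difference was -0.35 (SE 0.078, limma adjusted p = 0.170), and without HEP 7 the adjusted p was 0.0382. Pikfyve, the kinase that makes a phosphoinositide of late endosomes, differed by -0.28 (SE 0.082, limma adjusted p = 0.329), and its other probe gave 0.05. Mef2a, a transcription factor, differed by -0.40, but by 0.10 around the centre of all 24 arrays, so that its direction was not settled. Its other probes gave 0.04 and 0.05.

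**Figure D3:**
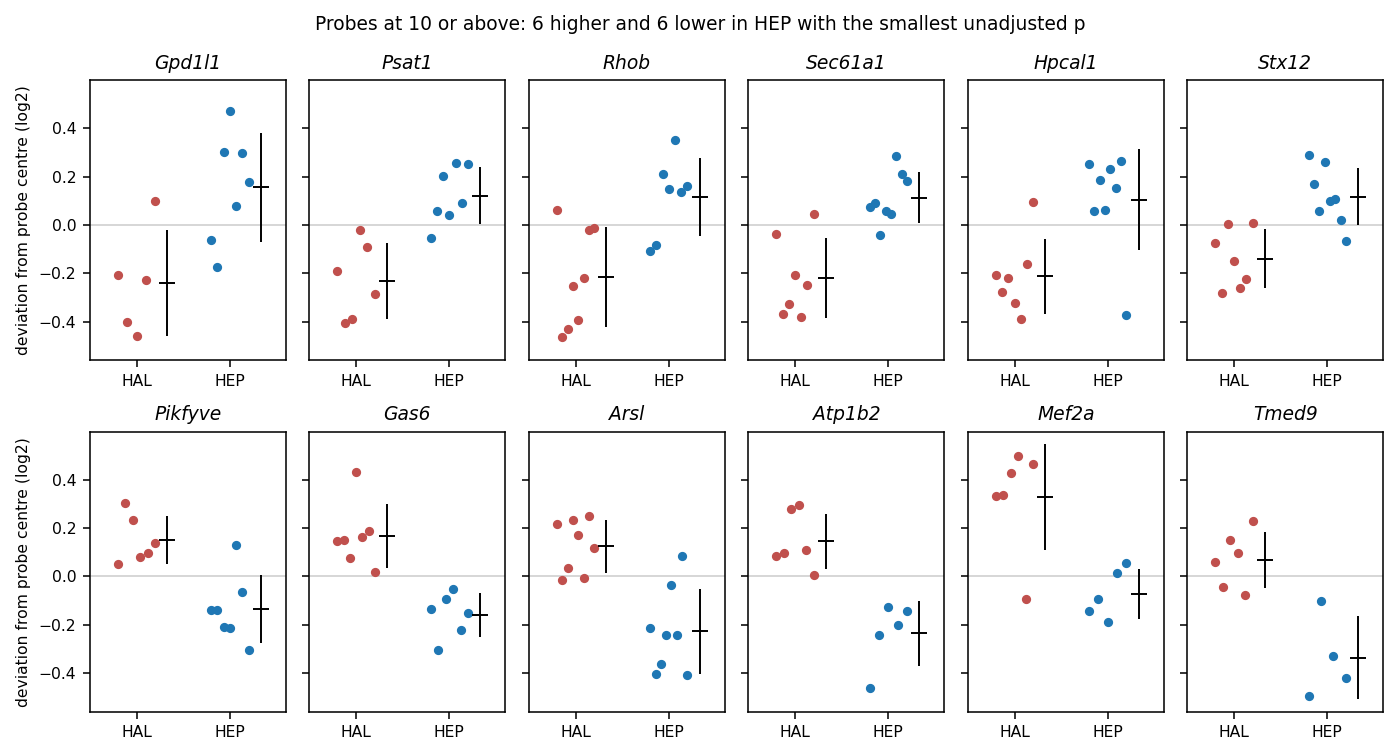
Deviation of each array from the probe's centre (log2) for the 12 probes at 10 or above with the smallest unadjusted p, 6 in each direction; bars give the mean and SD of a group. Arrays without a reading are not shown. Among the arrays read, Gas6, Atp1b2 and Tmed9 do not overlap between HAL and HEP, and none of the 12 passed the adjusted threshold.

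Near 10, the genes with the smallest p among probes with 1 to 6 cells of 9 digits were chosen after these values were seen. Dusp6, the phosphatase that switches off ERK, read 9.76 at the lowest, 10.26 at the median and 10.38 at the highest of 5 HAL arrays, and 10.50, 10.70 and 10.81 in 6 HEP arrays. All HEP readings lay above all HAL readings. A value just above 10, whose first decimal is 0, went unread and would lie within the HAL range, here and for Mapre1 below. Whether the unread arrays lie there was not tested. The mean was 0.54 higher in HEP (SE 0.142, limma adjusted p = 0.295), while other probes of Dusp6, below 10, gave -0.07 and 0.08.

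Mapre1, which binds the growing ends of microtubules, read 9.71, 10.15 and 10.38 in 6 HAL arrays and 10.45, 10.66 and 10.75 in 5 HEP arrays. The groups did not overlap, with a difference of 0.53 (SE 0.143, limma adjusted p = 0.295). Its other probe below 10 gave 0.12. Cdc73, a subunit of the PAF1 complex of transcription elongation, read 9.79, 10.17 and 10.26 in 7 HAL arrays and 10.23, 10.54 and 10.64 in 8 HEP arrays. Only HEP 2 lay within the HAL range, and the difference was 0.43 (SE 0.106, limma adjusted p = 0.295).

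Like Mapre1, the genes Gnb2, Mdfic and Caprin1 had other probes that were all higher in HEP. Gnb2, a beta subunit of heterotrimeric G proteins, read 9.86, 10.27 and 10.57 in 6 HAL arrays and 10.48, 10.72 and 10.99 in 7 HEP arrays. The ranges overlapped, the difference was 0.48 (SE 0.137, limma adjusted p = 0.295), and the probe below 10 gave 0.23. Mdfic, an inhibitor of MyoD family factors, differed by 0.49 (SE 0.150, limma adjusted p = 0.311) and by 0.27 in its other probe. Caprin1, an RNA-binding protein of stress granules, differed by 0.38 (SE 0.110, limma adjusted p = 0.295), and its 3 other probes gave 0.09, 0.19 and 0.20. That these probes lean the same way was noticed among genes chosen for their small p and was not tested.

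Towards HAL, Arrb1, the beta-arrestin that uncouples G protein-coupled receptors, read 10.43, 10.66 and 10.66 in 5 HAL arrays and 9.86, 10.17 and 10.53 in 7 HEP arrays. Of the HEP arrays 6 lay below the HAL range, the difference was -0.37 (SE 0.129, limma adjusted p = 0.395), and another probe gave -0.02. Jun, a subunit of the AP-1 transcription factor, read from 10.61 with a median of 10.80 in 8 HAL arrays, whereas its 4 HEP readings spread from 9.77 to 10.84. The difference was -0.47 (SE 0.160, limma adjusted p = 0.395), and was 0.03 when the decimals were read as angles. Its other probes gave -0.07 and -0.21. Cspp1, Rnpc3, Zcchc24 and Cnst differed by -0.52, -0.44, -0.33 and -0.30, with limma adjusted p from 0.311 to 0.468. The direction of Rnpc3 turned when the decimals were read as angles, and Cnst had a lone reading of 10.88 in HAL 5.

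**Figure D4:**
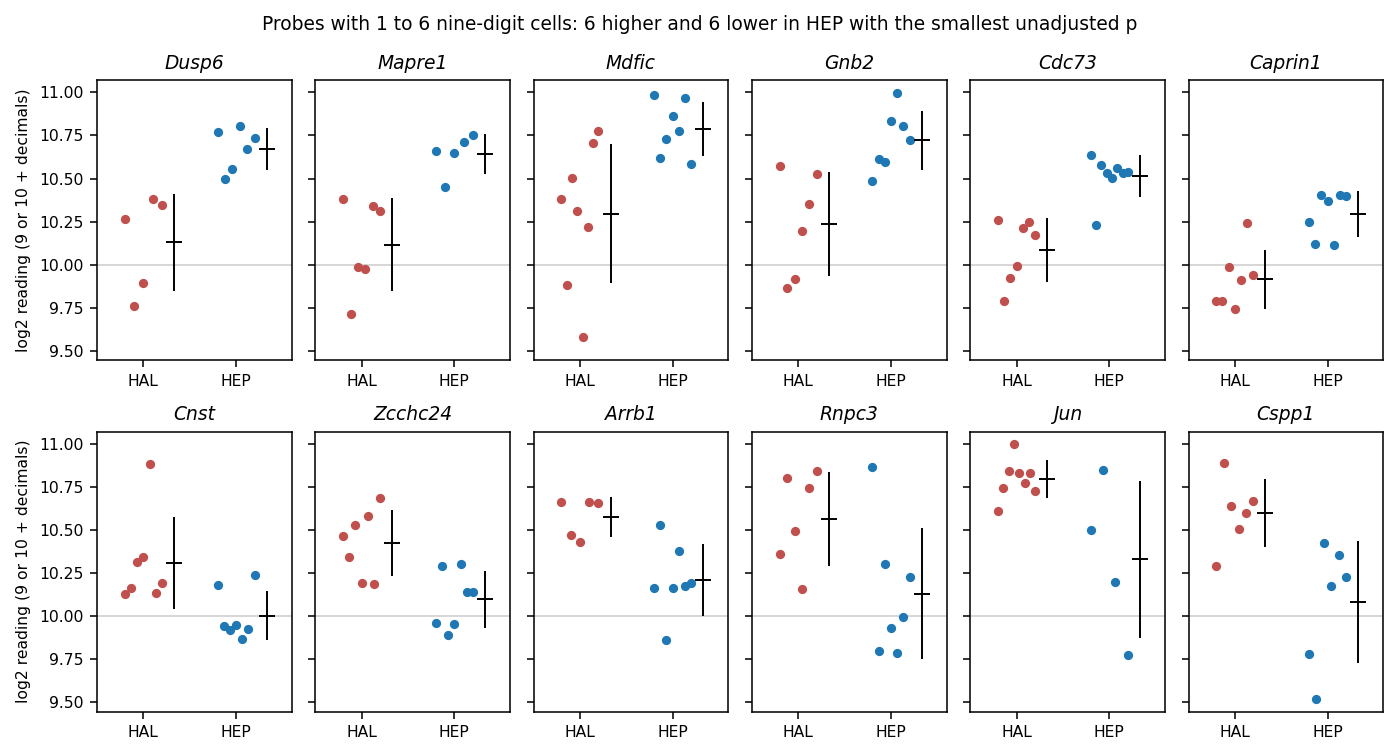
Log2 readings of each array for the 12 probes with 1 to 6 cells of 9 digits and the smallest unadjusted p, 6 in each direction; bars give the mean and SD of a group and the grey line marks 10. Arrays without a reading are not shown. Among the arrays read, Dusp6 and Mapre1 do not overlap between HAL and HEP, and none of the 12 passed the adjusted threshold.

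By the rule fixed for naming genes, the smallest p over all 1805 probes read as near 10 belonged to Sesn2, Adtrp, Pianp, Septin8, Sgms1 and Cdc73 towards HEP and to Rnf123, Wbp4, Dpf3, Car9, Hacd3 and Ddhd2 towards HAL. Of these 12 probes 11 had 7 or more cells of 9 digits, Cdc73 being the exception. Their read differences, from -0.85 in Rnf123 to 0.82 in Sesn2, are not given as expression differences here, since a lost zero alone can move a cell by 1 unit or more. Sesn2, an inhibitor of mTORC1 under amino acid shortage, read from 9.12 to 10.55 within HAL. Another probe of Sesn2, below 10, gave -0.06, and Wbp4, which read -0.78, gave 0.37 in 1 of its probes below 10. The same holds for Erg, Slc38a3 and Lcn2, with 7, 9 and 7 cells of 9 digits, which read 0.53, 0.45 and -0.50.

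Below 10, Stip1 had the smallest unadjusted p of all probes, 3.1e-05. Stip1 is the co-chaperone that links Hsp70 with Hsp90. Its deviations were -0.49, -0.19 and -0.07 in 8 HAL arrays and -0.07, 0.18 and 0.28 in 8 HEP arrays, and the ranges met only at their ends. The difference was 0.39 (SE 0.075, limma adjusted p = 0.431). Flt4, the receptor of VEGF-C, differed by 0.40 (SE 0.090, limma adjusted p = 0.431). Ythdf1, a reader of N6-methyladenosine, also picked for its small p, differed by 0.42 without overlap of the arrays read (SE 0.089, limma adjusted p = 0.431). Other probes of Ythdf1 gave 0.08 and 0.09. C19h19orf53, Borcs7 and Iws1 differed by 0.48, 0.37 and 0.37, Iws1 with an unsettled direction. Other probes gave 0.004 and 0.09 for C19h19orf53, 0.06, 0.10 and 0.13 for Borcs7 and -0.18 for Iws1.

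Towards HAL below 10, Rup2, Trip6 and C2cd5, all picked for their small p, did not overlap between the groups among the arrays read. Their differences were -0.41, -0.38 and -0.33. Other probes of Rup2 gave 0.04, 0.08 and 0.22, and another of C2cd5 gave 0.02. Trip6 is an adaptor of focal adhesions. Coq8a, needed for coenzyme Q synthesis, and Tatdn1 differed by -0.41 and -0.40. Isg15, the interferon-induced ubiquitin-like protein, differed by -0.45 around the centre of the 16 arrays and by 0.27 around that of all 24, and its group means lay almost opposite each other on the circle, so no direction can be given.

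Probes of the same gene hardly shared their differences. Over 9188 pairs of probes of 1 gene, 51.5% had the same sign, and Pearson's r was 0.04, given as a description over pairs that share arrays. At 10 or above the share was 52.2% of 92 pairs, and with the probes of 1 to 6 cells of 9 digits added 52.6% of 173 pairs.

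Gene lists are described over the 2135 probes that lie at 10 or above or have 1 to 6 cells of 9 digits. Of these 60.3% were higher in HEP, 50.9% with arrays centred, the median difference was 0.03, limma called 0 (0.0%), and at an unadjusted p under 0.05 stood 131 towards HEP (6.14%) and 57 towards HAL (2.67%). No list had a called member, so counts of direction are all that can be given, and they say nothing particular to a list. The lists were drawn up with earlier results of these data known. For each list described the count below 10 is given as well, where 48.3% of all probes were higher in HEP.

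Signalling by TGF-beta and BMP, which steadies the vessel wall, had 8 of 8 probes higher in HEP with a median of 0.20, and also 8 of 8 with arrays centred. Without HAL 2 it was 6 of 7. Its members included the co-receptor Eng with a difference of 0.31 (SE 0.149), the shared signal carrier Smad4 with 0.22 (SE 0.080), the target Id1 with 0.23 (SE 0.139) and the receptor Bmpr2 with 0.06 (SE 0.149). Below 10, 23 of 37 probes were higher in HEP. Smad9 differed there by -0.38 (SE 0.108, limma adjusted p = 0.481) and by 0.05 in its other probe.

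Tight and adherens junction genes had 12 of 14 probes higher in HEP, with or without centring, at a median of 0.10. Below 10 only 5 of 23 were higher, at a median of -0.047, and over all 3 classes, with the readings of 7 to 14 cells included, 19 of 41 at -0.0010. Afdn, which ties nectins to actin, differed by 0.26 (SE 0.081, limma adjusted p = 0.329), and by 0.09 and 0.19 in probes below 10. Of the proteins that seal the cell contacts, Cldn5 gave 0.05 (SE 0.081), Ocln 0.09 (SE 0.099), the junctional adhesion molecule F11r 0.21 (SE 0.119) and Cldn12 -0.10 (SE 0.099), and the scaffold Tjp1 gave 0.10 (SE 0.089). Below 10, the claudin Cldn1 differed by -0.24 (SE 0.091, unadjusted p = 0.0146 in limma).

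Of the endothelial markers 15 of 17 probes were higher in HEP (13 with arrays centred), at a median of 0.09, and 3 of 6 below 10. Lists share members, so their counts are not independent. Cldn5, Ocln and Esam are also in the junction list, Eng in the TGF-beta list and Slc2a1 in the hypoxia list. Abcg2, an efflux pump of the barrier, differed by 0.27 (SE 0.114, limma adjusted p = 0.522). The other main pump, Abcb1a, gave 0.25 (SE 0.112) in 1 probe and -0.13 (SE 0.120) in another. Abcc4, an efflux pump for organic anions, differed by -0.26 (SE 0.086, limma adjusted p = 0.329). Astrocyte markers had 3 of 8 probes higher in HEP, with the glutamine synthetase gene Glul, which fixes ammonia in astrocytes, at -0.18 (SE 0.121), the water channel Aqp4 at 0.20 (SE 0.163) and Gfap at -0.03 (SE 0.113). Below 10, 7 of 14 astrocyte probes were higher. In bulk samples a different share of cells and a different RNA content per cell cannot be told apart, and what part cell content has in the list counts was not tested.

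Hypoxia and glycolysis genes had 18 of 21 probes higher in HEP, 16 with arrays centred, at a median of 0.08, and 17 of 29 below 10. The enzymes Aldoa, Eno1 and Tpi1 differed by 0.24 (SE 0.131), 0.23 (SE 0.113) and 0.19 (SE 0.091), the glucose transporter Slc2a1 by 0.16 (SE 0.084) and the hypoxia factor Hif1a by -0.28 (SE 0.147). Genes of amino acid supply and the ATF4 response had 9 of 11 higher, 8 with centring, and 30 of 41 below 10, with Psat1 at 0.35 and the glutamine transporter Slc38a2 at -0.25 (SE 0.114). Endoplasmic reticulum chaperones had 10 of 13, and 11 of 20 below 10. Herpud1 gave 0.22 (SE 0.074), the chaperone Hspa5 0.05 (SE 0.096), and Xbp1 0.31, or -0.05 around the centre of all 24 arrays. Without HAL 2, hypoxia and glycolysis had 16 of 20 higher, the ATF4 list 7 of 10 and the chaperones 8 of 13. The share over all probes of both classes was then 57.3%.

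Basement membrane and matrix genes had 15 of 21 probes higher in HEP, 13 with centring, and 19 of 41 below 10. The collagen Col4a2 differed by 0.45 (SE 0.138), its partner chain Col4a1 by -0.02 (SE 0.126) and 0.03 (SE 0.139) in 2 probes, and the linker Nid1 by 0.24 (SE 0.110). In limma, 3 of these 21 matrix probes stood at an unadjusted p under 0.05, all higher in HEP. Below 10, 6 of 41 did, all lower, among them Timp1 at -0.28, Hspg2 at -0.27 and Lama4 at -0.26. Of all probes below 10, 7.12% stood so in either direction. Immediate early genes had 5 of 13 higher, and 22 of 37 below 10, with opposite values for 2 phosphatases of the MAP kinases, Dusp6 at 0.54 and Dusp1 at -0.25 (SE 0.108). Circadian clock genes had 0 of 6 higher, at a median of -0.05 and with single values from -0.11 in Bhlhe41 to -0.03 in Nr1d2, all smaller than their SE. Below 10 the clock genes had 18 of 28 higher, and over all 3 classes 20 of 38. At an unadjusted p under 0.05 in limma stood 4 of these 38 clock probes, all higher in HEP. Of all 20427 probes of the 3 classes 1496 stood so, 842 of them higher in HEP. The 4 were Csnk1d by 0.33, Csnk1e by 0.22 and Npas2 by 0.23 below 10, and Bhlhe40, whose 9 cells of 9 digits leave its reading of 0.68 uncertain. Other probes of Csnk1d, given below, went both ways. Acute phase and complement genes had 3 of 7 higher and 9 of 15 below 10, cytosolic ribosomal proteins 14 of 32 and 5 of 18, and the mitochondrial respiratory chain 19 of 32 (13 with centring) and 16 of 36.

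Other lists had their member with the smallest p below 10, where no level can be read, and none passed the adjusted threshold in limma. Podxl, a sialomucin of the vessel lumen, gave 0.32 (SE 0.10) there but 0.03 (SE 0.081) in a probe at 10 or above. Pdk4, which restrains pyruvate oxidation, gave 0.36 (SE 0.120) and 0.16 in its other probe. Gabarapl1, an autophagy protein, gave 0.31 (SE 0.093), and 0.23 in a probe at 10 or above. Plau, the urokinase that activates plasminogen, gave 0.26 (SE 0.096) and -0.11 in its other probe. Csnk1d, a clock kinase, gave 0.33 (SE 0.078) below 10, where its other probes gave -0.22, 0.04 and 0.19, and -0.05 at 10 or above. Towards HAL, the stress factor Atf3 differed by -0.39 (SE 0.104) and the protease inhibitor Timp1 by -0.28 (SE 0.081), each with 1 tested probe. The Wnt effector Tcf7l2 gave -0.37 (SE 0.094), whereas its 4 other probes ran from 0.03 to 0.08. The fatty acid desaturase Scd2 gave -0.29 (SE 0.083), against -0.03 and 0.09 in other probes below 10 and 0.03 at 10 or above. Srxn1, Zc3h12a and the below-10 probe of the gap junction gene Gja1 gave 0.27, -0.27 and 0.43, each with a direction that turned around the centre of all 24 arrays. Other probes of Srxn1 gave -0.004 and 0.14. Other probes of Gja1 gave 0.06 below 10 and -0.15 at 10 or above. Of the prostaglandin list, Ptgs2, the inducible cyclooxygenase, lay at 10 or above and differed by 0.31 (SE 0.099, limma adjusted p = 0.329). The proteasome subunit Psma6 and the ribosomal protein Rpl13a, also at 10 or above, differed by -0.33 (SE 0.126) and -0.22 (SE 0.087).

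Markers of cells that a vessel preparation could carry along were mostly measured below 10. There the number of probes higher in HEP was 13 of 26 for neurons, 9 of 17 for oligodendrocytes, 4 of 16 for microglia, 5 of 12 for neutrophils and monocytes, 3 of 13 for lymphocytes and 3 of 16 for hepatocytes. It was 5 of 11 for choroid plexus and 2 of 3 for red cells. For cells of the vessels themselves, the counts below 10 were 3 of 11 for pericytes, 7 of 12 for smooth muscle and 2 of 10 for perivascular fibroblasts. At 10 or above or with 1 to 6 cells of 9 digits, they were 4 of 5, 3 of 7 and 3 of 7. Over all 3 classes, neurons had 14 of 33 and oligodendrocytes 10 of 23. The member with the smallest p was Itgam for microglia at -0.19 (SE 0.083), Camp for neutrophils and monocytes at -0.19 (SE 0.087), Cd8a for lymphocytes at -0.21 (SE 0.112; -0.12 and 0.03 in other probes), Apoh for hepatocytes at -0.16 (SE 0.093), Kcnj13 for choroid plexus at -0.14 (SE 0.073) and Alas2 for red cells at 0.17 (SE 0.119). Rbfox3 for neurons and Mal for oligodendrocytes gave 0.30 (SE 0.124; -0.06 in another probe) and 0.39 (SE 0.106). Against these stood the neuronal Dlg4 with -0.18 (SE 0.087) and the oligodendrocyte marker Cnp with a reading of -0.46 that its 12 cells of 9 digits leave uncertain. Abcc9 for pericytes gave -0.25 (SE 0.092; 0.26 and -0.03 in other probes), Pln for smooth muscle 0.17 (SE 0.108; -0.03 and 0.01 in others) and Igf2 for perivascular fibroblasts -0.16 (SE 0.082; -0.08, -0.03 and 0.03 in others). The groups of Mal lay almost opposite on the circle, so its direction is not settled. Dlg4 and Cnp apart, each was picked as the member with the smallest p of its list, and the limma adjusted p-values ran from 0.481 in Mal to 0.825 in Alas2.

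**Figure D5:**
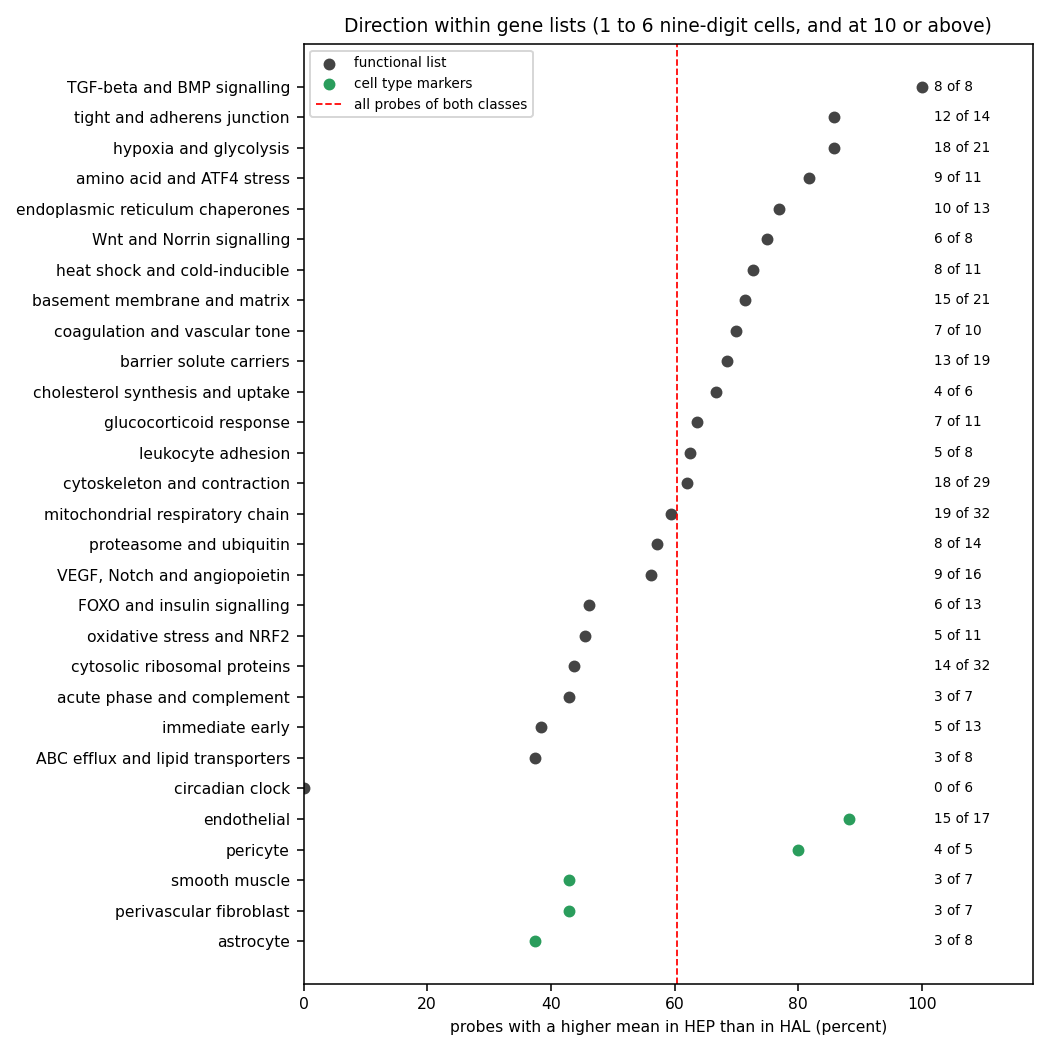
Percent of probes with a higher mean in HEP than in HAL for each list with 5 or more tested probes, over probes at 10 or above or with 1 to 6 cells of 9 digits; counts stand at the right. The dashed line is the share over all 2135 probes, 60.3%, which was 50.9% with arrays centred.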

How the data were processed

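RNA of cortical microvessels was hybridised to 1 array per sample. Per the submitters' processing notes, the authors made log2 values with RMA, of a version not given in the sources used here. The deposited table, as provided here, holds only decimals of these values. Of 31099 probes, 20832 had 1 gene symbol in the platform annotation. Cells shorter than full length were missing, 18.2% at 10 or above. Since a first decimal of 0 is lost, values with such a decimal were never read as they stood, so missing cells depend on the value. What part this has in the means, ranges and overlap of sparsely read probes was not tested. Python 3.11.15 with numpy 2.4.6 read the digits. limma 3.58.1 in R 4.3.3 fitted HEP minus HAL with eBayes without trend, two-sided, at least 4 readings in each group, and Benjamini-Hochberg adjustment within a class at 0.05. Exact permutation tests were two-sided. 0 pairs of arrays were identical. The script was tested on simulated data.

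Named genes were, per class and direction, up to 10 called probes, filled up to 6 by the smallest unadjusted p, and of each list up to 3 called members or else the member with the smallest p. This gave 70 probes. Other list members in the text were chosen after their values were seen, as were the class of 1 to 6 cells of 9 digits and the 11 probes it added. The members and the 27 functional and 13 cell type lists were chosen with earlier results of these data known, and the ribosomal list was narrowed after its values had been seen, to leave out a kinase that its name pattern had matched. Alternatives covered the reading of short cells, the circle's centre, probe filters, array centring and weights, Sham in the fit, the replicate block and leaving out each array. Arrays were not paired by replicate number in the main fit. Of 8 same-number pairs, 2 correlated over 0.1 at 10 or above and 3 in the class of 1 to 6 cells of 9 digits. Such correlations of partly missing values cannot tell whether same-number arrays belong together.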

Additional observations from a re-analysis of the deposited data

Results flagged for a closer look

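In 15 of 170 groups of values, 1 array stood far from the others of its group by Dixon's criterion, which chance does in about 1 group in 20. Among genes at 10 or above or below it, in deviations from the probe's centre, these were Hpcal1 in HEP 8 (-0.37), Gas6 in HAL 5 (0.43), Mef2a in HAL 7 (-0.095), Rpl13a in HAL 1 (0.10), Borcs7 in HAL 7 (0.10) and Coq8a in HEP 2 (0.0040). Among readings near 10 they were Cdc73 in HEP 2 (10.23) and Cnst in HAL 5 (10.88), and, in probes whose level near 10 the digits do not show, Adtrp in HAL 7 (9.95), Sesn2 in HAL 6 (10.55) and HEP 3 (9.77), Dpf3 in HAL 8 (9.27) and Lcn2 in HEP 4 (10.62). Of whole arrays, HAL 2 had a low median reading over all probes read as near 10 (9.95), and HEP 2 a low median deviation at 10 or above (-0.056).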

How the results depend on the processing

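The adjusted counts stayed at 0 in each class under all planned settings that keep the 16 arrays, and also under the added ones. The range when 1 array was left out was 0 to 1 near 10, 0 to 1 at 10 or above, 0 to 0 below 10 and 0 to 0 in the class of 1 to 6 cells of 9 digits. limma called Sesn2 without HAL 6 (adjusted p = 0.0265), Pianp without HEP 5 (0.0468) and Arsl without HEP 7 (0.0382). The nearest others were 0.0503 with arrays centred and 0.0531 without HAL 7, both at 10 or above, and 0.0558 near 10 with decimals as angles. The replicate block called 0 in each class, with smallest adjusted p of 0.490, 0.0670, 0.306 and 0.138 near 10, at 10 or above, below 10 and in the class of 1 to 6 cells. At an unadjusted p under 0.05, array centring moved the split near 10 from 106 higher and 43 lower in HEP to 75 and 61, and decimals as angles to 64 and 55. Below 10, a resultant length of at least 0.7 turned 655 and 565 into 83 and 143. Of 1868 alternatives for 81 named probes, 1847 kept direction and side of the threshold, 3 passed it and 18 reversed; the cause was not tested. With decimals as angles, Pianp was -0.18, Adtrp -0.070, Rnf123 0.24, Car9 0.025, Wbp4 0.021, Jun 0.035, Rnpc3 0.089, Slc38a3 -0.30 and Erg -0.021. With the centre of all 24 arrays, Rhob was -0.38, Gpd1l1 -0.12, Mef2a 0.10, Iws1 -0.20, Isg15 0.27, Zc3h12a 0.065, Xbp1 -0.048, Srxn1 -0.063 and Gja1 -0.071. Signal over background could not be assessed, since the table holds no levels.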
